A study of Mus musculus with 12 samples.

Results

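The mRNA levels of 10 genes of cystine uptake and glutathione metabolism were followed in mouse kidney cortex, out of 55487 genes in the count table. The genes were taken by name, without a threshold on their values, but with earlier results of these data known. They are the cystine transporter genes Slc7a11 and Slc3a2, the synthesis genes Gclc, Gclm and Gss, the recycling gene Gsr, the peroxidase genes Gpx4 and Gpx3, and the breakdown genes Ggt1 and Chac1.

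The study asked how loss of ALR (augmenter of liver regeneration, encoded by Gfer) in proximal tubule cells changes the response of the kidney to ischemia-reperfusion (IR). RNA sequencing gave 12 libraries in 4 groups of 3. Ctrl mice carried ALR flox/flox without Cre and had no ischemia (labelled WT, Sham). PT-KO mice carried ALR flox/flox with Ggt1-Cre and had no ischemia (genotype given in the labels as an ALR knockdown). Ctrl+IR and PT-KO+IR mice had the same genotypes, respectively, and underwent 22 min of bilateral renal ischemia and 24 h of reperfusion. The mice were 6 to 8 weeks old and of a mixed C57BL/6 background. All groups shared the floxed alleles, and no group carried Cre without them. Cre in these mice is driven by the promoter of Ggt1, which is itself 1 of the 10 genes.

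Library totals ran from 12165089 to 23123693 counts. The chi-square per degree of freedom between replicate libraries was 8.21 to 66.3, where counting error alone gives a value near 1. Ctrl 3 stood apart in its group, at 61.0 from Ctrl 1 and 58.5 from Ctrl 2, which were 8.21 from each other, and the Ctrl+IR libraries were 36.9 to 66.3 from one another. With this scatter, the number of libraries and not the depth limited the precision for the well-counted genes. Xist and Y-linked counts showed that 2 libraries, Ctrl 1 and Ctrl 2, came from female mice and the other 10 from male mice. Most fold changes that rest on Ctrl are therefore given beside those with sex as a covariate in a fit to all 12 libraries, while the comparisons of PT-KO+IR with PT-KO and with Ctrl+IR hold male mice only. Since both female libraries are in Ctrl, the sex term takes them up, and every value with sex as a covariate that rests on Ctrl sets Ctrl 3 alone against the other groups. Ctrl 3, which was placed in its group by its column name only, is then assumed to vary like the other libraries, and a call kept or lost in that fit rests on 1 control library. In CPM (read counts scaled to library size with TMM factors), Gfer was at 9.96 to 17.1 in PT-KO and at 11.4 to 14.4 in Ctrl, which overlapped, with a log2 fold change of 0.13 ± 0.20 (SE, adjusted p = 0.761). After IR it was at 15.3, 19.98 and 17.6 in Ctrl+IR and at 21.6, 22.8 and 21.6 in PT-KO+IR, so that every library labelled PT-KO+IR was above every Ctrl+IR library (0.32 ± 0.13, adjusted p = 0.0723). These counts cover the whole gene, including exons outside the floxed segment, and every cell type of the cortex, and so do not check the deletion. The genotypes are those of the labels.

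Glutathione is a tripeptide of glutamate, cysteine and glycine that keeps cellular thiols reduced. Its supply is often limited by cysteine, which cells take up as the oxidised dimer cystine through an antiporter of Slc7a11 (xCT) and Slc3a2, or make from methionine by transsulfuration. Peroxidases such as GPX4 spend glutathione to reduce peroxides, and GPX4 reduces lipid peroxides in membranes, which is the step that holds back ferroptosis. In the kidney, proximal tubule cells carry much of this metabolism. Their brush border breaks down filtered glutathione with gamma-glutamyl transferase, and they secrete the plasma peroxidase GPX3.

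Transcription factors of the stress response are known to act on several of these promoters. ATF4, a factor of the amino acid response, binds the C/EBP-ATF response element, and NRF2, encoded by Nfe2l2, binds the antioxidant response element. The 250 bases before the RefSeq start were read for 14 annotated starts of 8 of the genes (GRCm38.p6), and Gclc and Gsr were not among them. Both strands were searched for TGATGNAA (C/EBP-ATF element) and TGACNNNGC (antioxidant element), and the motifs did not overlap in the windows that had matches. The windows of 3 genes are shown because they hold a match beside a gene that rose after IR in PT-KO. Capitals mark the matches, and each window is written 5′ to 3′ on the strand of its gene.
Slc7a11, chr3:50443614-50443863, minus strand: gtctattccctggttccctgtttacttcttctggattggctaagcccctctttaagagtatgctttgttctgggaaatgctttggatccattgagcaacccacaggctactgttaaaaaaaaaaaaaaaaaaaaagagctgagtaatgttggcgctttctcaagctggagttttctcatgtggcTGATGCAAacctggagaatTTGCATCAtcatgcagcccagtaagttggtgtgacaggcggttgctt
Chac1, chr2:119350992-119351241, plus strand: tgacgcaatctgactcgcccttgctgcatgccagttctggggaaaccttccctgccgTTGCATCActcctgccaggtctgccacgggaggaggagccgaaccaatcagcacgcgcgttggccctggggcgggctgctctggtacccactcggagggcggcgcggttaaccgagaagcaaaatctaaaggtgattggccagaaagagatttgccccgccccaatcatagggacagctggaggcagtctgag
Gclm, chr3:122245307-122245556, plus strand: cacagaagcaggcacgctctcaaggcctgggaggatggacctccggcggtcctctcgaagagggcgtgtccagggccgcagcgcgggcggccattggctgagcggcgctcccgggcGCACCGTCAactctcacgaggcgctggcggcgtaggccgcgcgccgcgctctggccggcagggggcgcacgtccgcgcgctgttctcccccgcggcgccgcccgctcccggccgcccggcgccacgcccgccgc

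The Slc7a11 window held 2 C/EBP-ATF matches, TGATGCAA at bases -66 to -59 and its reverse complement TTGCATCA at -47 to -40 from the start. Chac1 held 1, at -193 to -186. Such a match occurred in 3.45% of 32851 RefSeq windows of the same length, and 2 or more occurred in 0.0396%. The antioxidant match GCACCGTCA, on the opposite strand to the gene, lay at -134 to -126 of Gclm. Ggt1 had 1 antioxidant match in each of 2 of its 4 windows, and 10.2% of all windows had at least 1. The windows of Slc3a2, Gss, Gpx4 and Gpx3 held neither set of letters. A match of letters is a description and not a bound site.

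After IR in PT-KO mice, 8 of the 10 genes changed: Slc7a11, Slc3a2, Gclc, Gclm, Gsr and Chac1 rose, and Gss and Ggt1 fell (edgeR quasi-likelihood test, adjusted p under 0.05). In this comparison 32.9% of the 15155 genes tested were higher and 32.7% were lower, so that a changed gene was common. The median log2 fold change was 0.54 over the 10 genes and 0.01 over all genes tested. After IR in Ctrl mice, Chac1 and Gsr rose, Slc3a2 fell, and the other 7 genes did not pass the test. The background there was 11.4% of 15567 genes higher and 7.97% lower, and the medians were 0.19 over the 10 genes and -0.01 over all.

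Between the injured groups, Slc7a11, Chac1, Gsr and Slc3a2 were higher in PT-KO+IR than in Ctrl+IR and no gene of the 10 was called lower. Of all 15281 genes tested, 22.5% were higher and 24.4% were lower. Total count normalization moved the median of all genes in this comparison by -0.21 on the log2 scale, and with it Ggt1, Gpx4 and Gss were also called lower (log2 fold changes of -0.42, -0.51 and -0.52). Without IR, none of the 9 genes tested passed the test between PT-KO and Ctrl. The called share of all 15291 genes was 0% higher and 0% lower in edgeR, although 4 of the 9 and 2573 of all genes had an unadjusted p under 0.05, and DESeq2 called 3 of them (Slc3a2, Gsr and Ggt1) and 458 of all genes. Without Ctrl 3, which left the female Ctrl libraries alone, edgeR called Slc3a2 lower and Gss, Gsr and Ggt1 higher (-0.61, 0.48, 0.53 and 0.90). That fit sets female Ctrl libraries against male PT-KO libraries. Its called share of all genes is not given here, so that these calls are not a result about the listed genes.

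The same libraries enter several comparisons: PT-KO+IR is shared by the comparisons with PT-KO and with Ctrl+IR, which are therefore not independent of each other. The difference of the IR responses of both genotypes was tested as an interaction on all 12 libraries. It was called for Slc7a11, Slc3a2 and Gsr, whose response was more positive in PT-KO, and for Ggt1, whose response was more negative. Among 16168 genes, 14.3% had a more positive and 16.4% a more negative response in PT-KO at the same threshold.

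**Figure D1:**
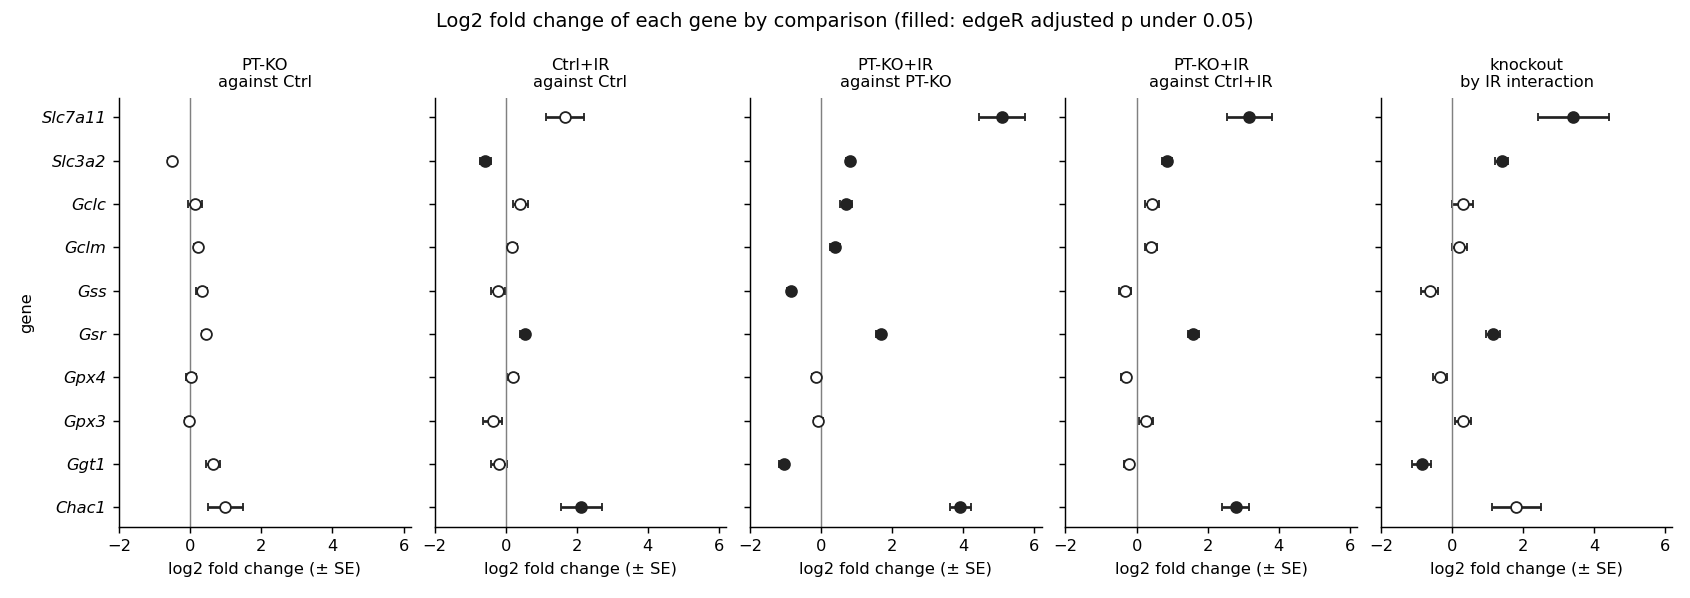
Log2 fold changes (x axis, ± SE) of the 10 genes (y axis) in the 4 comparisons of 2 groups of 3 libraries and in the interaction over 12 libraries. Filled points passed an edgeR adjusted p of 0.05. Slc7a11 was not tested in PT-KO against Ctrl, and it had the largest point, 5.09, in PT-KO+IR against PT-KO.

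Slc7a11 (chromosome 3, 49892526 to 50443614, mm10) encodes xCT, the light chain that carries cystine. Its counts were 5, 8 and 11 in Ctrl and 4, 6 and 9 in PT-KO. After IR they were 30, 43 and 11 in Ctrl+IR and 46, 492 and 198 in PT-KO+IR. Each PT-KO+IR library was above every other library, while Ctrl+IR 4 was level with Ctrl 3. In CPM, the lowest PT-KO+IR library was at 3.93 and the highest Ctrl+IR library at 2.24.

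The group level was 0.449 ± 0.182 in Ctrl, 0.376 ± 0.157 in PT-KO, 1.43 ± 0.778 in Ctrl+IR and 12.9 ± 8.98 CPM in PT-KO+IR (mean ± SD, n = 3 each). The spread among PT-KO+IR libraries, from 3.93 to 21.9 CPM, was larger relative to its mean than in the other groups. Slc7a11 rose after IR in PT-KO by a log2 fold change of 5.09 ± 0.65 (SE, adjusted p = 7.7e-05), and leaving out 1 library at a time gave 4.47 to 5.52. Against Ctrl+IR it was higher by 3.17 ± 0.63 (adjusted p = 0.0051). That value ranged from 2.55 without PT-KO+IR 3 to 3.61 without Ctrl+IR 2, and it was called in 6 of 6 such fits. In Ctrl mice the IR change was 1.68 ± 0.53 and did not pass (adjusted p = 0.0634), with 1.23 when sex was a covariate. It was called by DESeq2 (adjusted p = 0.0370), with total counts (adjusted p = 0.0489) and without Ctrl+IR 4 (1.99, adjusted p = 0.0291). The interaction was 3.41 (adjusted p = 0.0231). It was 3.86 with sex as a covariate but no longer called (adjusted p = 0.0569), and it was called in 8 of 12 fits that left out 1 library, being lost without Ctrl 2, Ctrl 3, PT-KO 1 or PT-KO 2. Slc7a11 was not tested in PT-KO against Ctrl because its counts of at most 11 were below the filter. The fits with IR thus kept it only through the injured libraries, where it was high, and their calls are not independent of the filter. The size of its rise in PT-KO rests on 4 to 9 counts a library without IR.

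Slc3a2 (chromosome 19, 8706882 to 8723369) encodes the heavy chain that brings xCT and other amino acid carriers to the cell membrane. Its level was 308, 280 and 240 CPM in Ctrl and 198, 185 and 194 CPM in PT-KO. It was 199, 157 and 198 CPM in Ctrl+IR and 375, 332 and 308 CPM in PT-KO+IR. PT-KO and Ctrl+IR overlapped, and both lay below every Ctrl library and every PT-KO+IR library.

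Slc3a2 thus moved in opposite directions after IR. It fell in Ctrl (log2 fold change -0.57 ± 0.15, adjusted p = 0.0406) and rose in PT-KO (0.81 ± 0.10, adjusted p = 4.9e-05). The interaction was 1.39 ± 0.18 (adjusted p = 2.8e-04) and was called in 12 of 12 fits that left out 1 library. With sex as a covariate, where Ctrl 3 at 240 CPM is the only Ctrl library that counts, the interaction was 1.19 (adjusted p = 0.00277) and the fall in Ctrl was -0.38 and was not called (adjusted p = 0.137). The fall in Ctrl also lost its call with total counts (-0.47, adjusted p = 0.0784) and without Ctrl 1, Ctrl 2, Ctrl+IR 1 or Ctrl+IR 2 (-0.64 to -0.45). Against Ctrl+IR, PT-KO+IR was higher by 0.87 ± 0.14 (adjusted p = 0.0022). The lower level in PT-KO than in Ctrl, -0.52 ± 0.11, did not pass in edgeR (adjusted p = 0.183), passed in DESeq2 (adjusted p = 0.00281) and was -0.32 with sex as a covariate.

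Per transcript length the transporter chains were far apart in level. Slc3a2 ranged from 121 to 260 TPM (counts scaled for exon length and library size) over the 12 libraries and Slc7a11 from 0.0467 to 4.02 TPM. Slc3a2 also serves other light chains, among them the large neutral amino acid transporter encoded by Slc7a5.

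**Figure D2:**
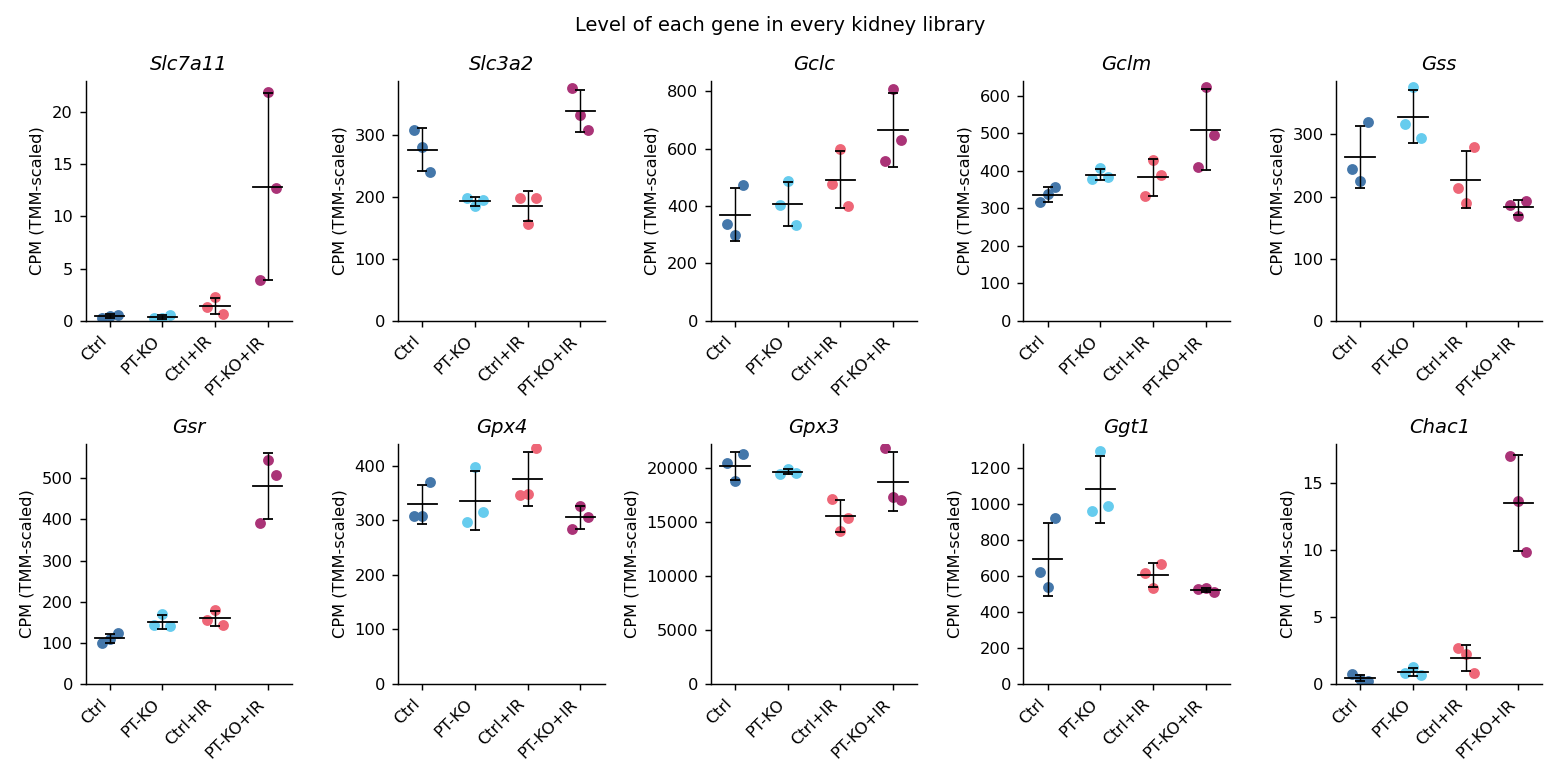
Level of each of the 10 genes in CPM (y axis, linear from 0, scaled by TMM) in every library, by group (x axis), with the mean as a line and the SD as bars (n = 3 per group). For Slc7a11, Chac1 and Gsr the 3 PT-KO+IR points lie above all other points, and for Slc3a2 the groups PT-KO and Ctrl+IR are the lowest.

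Gclc and Gclm encode the catalytic and modifier subunits of glutamate-cysteine ligase, which makes the first bond of glutathione. Gclc (chromosome 9, 77754535 to 77794485) was at 336, 299 and 474 CPM in Ctrl and 403, 487 and 333 CPM in PT-KO. After IR it was at 477, 597 and 402 CPM in Ctrl+IR and 556, 808 and 631 CPM in PT-KO+IR. The PT-KO+IR libraries lay above both groups without IR, and PT-KO+IR 2 lay below Ctrl+IR 2.

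Gclc rose in PT-KO after IR by a log2 fold change of 0.70 ± 0.16 (adjusted p = 0.0036). The change in Ctrl was 0.42 ± 0.22 (adjusted p = 0.207) and 0.05 with sex as a covariate. Against Ctrl+IR the value was 0.43 ± 0.19 and did not pass (adjusted p = 0.0950), except without Ctrl+IR 2, where it was 0.58 (adjusted p = 0.0281).

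Gclm (chromosome 3, 122245557 to 122270732) was at 316, 338 and 356 CPM in Ctrl and 379, 406 and 382 CPM in PT-KO. It was at 331, 429 and 387 CPM in Ctrl+IR and 409, 623 and 494 CPM in PT-KO+IR, and PT-KO+IR 2 lay within the range of Ctrl+IR. The rise in PT-KO after IR was 0.38 ± 0.14 (adjusted p = 0.0342), and it was called in 1 of 6 fits that left out 1 library, remaining only without PT-KO+IR 2. Its values in those fits ranged from 0.22 to 0.53. Against Ctrl+IR the value was 0.41 ± 0.18 (adjusted p = 0.0890), and it was called when all 12 libraries were fitted together (adjusted p = 0.0334) and without PT-KO+IR 2 (0.56, adjusted p = 0.0377). Leaving out 1 library at a time gave 0.25 to 0.56, called in 1 of 6 fits. The overlapping pseudogene Gm6061, with 6 to 157 counts, was also higher in PT-KO+IR than in PT-KO by 3.19, and reads of the shared exon cannot be divided between them.

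The TPM of Gclc was 1.46 to 2.41 times that of Gclm over the 12 libraries. The ratio was 2.27, 2.17 and 2.13 in PT-KO+IR, 1.78, 2.00 and 1.46 in PT-KO, 2.41, 2.33 and 1.73 in Ctrl+IR and 1.77, 1.48 and 2.23 in Ctrl. The PT-KO+IR values lay above those of PT-KO and overlapped those of Ctrl and of Ctrl+IR. No interaction was called for either subunit (0.30 ± 0.30 for Gclc and 0.20 ± 0.21 for Gclm, adjusted p = 0.484 and 0.483). They were 0.65 and 0.28 with sex as a covariate, also not called (adjusted p = 0.163 and 0.454).

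Gss (chromosome 2, 155563181 to 155592810) encodes glutathione synthetase, which adds glycine in the second step. Its level was 245, 225 and 319 CPM in Ctrl and 316, 376 and 294 CPM in PT-KO. It was 213, 190 and 279 CPM in Ctrl+IR and 186, 169 and 193 CPM in PT-KO+IR. PT-KO+IR was the lowest group, with PT-KO+IR 4 just above the lowest Ctrl+IR library.

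Gss fell after IR in PT-KO by 0.85 on the log2 scale (SE 0.11, adjusted p = 7.0e-05) in all 6 fits that left out 1 library. In Ctrl the value was -0.21 ± 0.20 (adjusted p = 0.471) and -0.49 with sex as a covariate (adjusted p = 0.120), and against Ctrl+IR it was -0.32 ± 0.16 (adjusted p = 0.129). The latter was called in 1 of 6 fits that left out 1 library, namely without Ctrl+IR 2 (-0.45, adjusted p = 0.0287), and ranged from -0.45 to -0.15 over them. The interaction, -0.63 ± 0.23, was just outside the threshold (adjusted p = 0.0578) and was -0.36 with sex as a covariate. It was called by DESeq2 (adjusted p = 0.0391) and with total counts (adjusted p = 0.0174). Exons of Gss overlap those of Acss2 on the opposite strand, an acetyl-CoA synthetase gene with 624 to 6632 counts. Acss2 itself fell by 2.84 on the log2 scale in PT-KO+IR against PT-KO. Whether the counting used strand is not given in the sources used here, so that the part of shared reads in the fall of Gss was not tested.

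Gsr (chromosome 8, 33652523 to 33698163) encodes glutathione reductase, which returns oxidised glutathione to the reduced form with NADPH. Its level was 99.5, 109 and 122 CPM in Ctrl and 143, 169 and 140 CPM in PT-KO. It was 155, 179 and 143 CPM in Ctrl+IR and 392, 545 and 508 CPM in PT-KO+IR. Every PT-KO+IR library was above every other library, PT-KO and Ctrl+IR overlapped, and all Ctrl libraries were below them.

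After Slc7a11 and Chac1, Gsr had the largest rise of the 10. It rose in PT-KO after IR by 1.67 ± 0.14 (adjusted p = 3.4e-06) and was higher than in Ctrl+IR by 1.60 ± 0.16 (adjusted p = 3.5e-04). In Ctrl it rose by 0.53 ± 0.13 (adjusted p = 0.0322), which with sex as a covariate was 0.38 and not called (adjusted p = 0.222). That call was also lost without Ctrl 1, Ctrl 2, Ctrl+IR 1 or Ctrl+IR 2 (0.45 to 0.54). The interaction of 1.15 ± 0.20 (adjusted p = 0.0016) was called in 12 of 12 fits that left out 1 library and was 1.30 with sex as a covariate (adjusted p = 0.00397). In PT-KO against Ctrl the value was 0.45 ± 0.11 (adjusted p = 0.195, and 0.0208 in DESeq2) and 0.30 with sex as a covariate, not called.

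The peroxidase genes did not follow this pattern. Gpx4 (chromosome 10, 80047166 to 80056439), whose product reduces lipid peroxides in membranes, was at 309, 308 and 371 CPM in Ctrl and 296, 397 and 315 CPM in PT-KO. It was at 346, 348 and 433 CPM in Ctrl+IR and 284, 327 and 307 CPM in PT-KO+IR. The groups overlapped, except that all Ctrl+IR libraries were above all PT-KO+IR libraries.

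The log2 fold change of Gpx4 was -0.14 ± 0.12 after IR in PT-KO (adjusted p = 0.310), 0.19 ± 0.15 after IR in Ctrl (adjusted p = 0.373) and -0.30 ± 0.13 in PT-KO+IR against Ctrl+IR (adjusted p = 0.0921). The value in Ctrl was 0.02 with sex as a covariate (adjusted p = 0.958). With total count normalization the value against Ctrl+IR was -0.51 and passed (adjusted p = 0.0143). Gpx4-ps2, a processed copy with 677 to 1342 counts, shares sequence with Gpx4, and the division of reads between them is uncertain.

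Gpx3 (chromosome 11, 54902453 to 54910377), the secreted peroxidase, was by far the most abundant of the 10 at 22226 to 33005 TPM. Its level was 20396, 18747 and 21259 CPM in Ctrl and 19424, 19900 and 19548 CPM in PT-KO. It was 17138, 14178 and 15294 CPM in Ctrl+IR and 21825, 17275 and 17042 CPM in PT-KO+IR. Ctrl+IR had the lowest values, but PT-KO+IR 4 lay below Ctrl+IR 1. The log2 fold change was -0.37 ± 0.28 after IR in Ctrl (edgeR adjusted p = 0.362), and DESeq2 called it (adjusted p = 0.0275). It was -0.45 with sex as a covariate and not called (adjusted p = 0.160). It was -0.08 ± 0.12 after IR in PT-KO (adjusted p = 0.602).

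Ggt1 and Chac1 both act in the breakdown of glutathione, at different places. Ggt1 (chromosome 10, 75561604 to 75586200) encodes gamma-glutamyl transferase of the brush border, which cleaves glutathione outside the cell. It was at 619, 535 and 919 CPM in Ctrl and 961, 1294 and 986 CPM in PT-KO. It was at 616, 534 and 667 CPM in Ctrl+IR and 527, 530 and 509 CPM in PT-KO+IR. PT-KO was above every other group, the male library Ctrl 3 was close to it, and PT-KO+IR was lowest.

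Ggt1 fell after IR in PT-KO by 1.05 on the log2 scale (SE 0.12, adjusted p = 3.6e-05). In Ctrl the value was -0.19 ± 0.23 (adjusted p = 0.578), and with sex as a covariate it was -0.60 (adjusted p = 0.0541). The interaction of -0.86 ± 0.26 (adjusted p = 0.0289) was -0.45 with sex as a covariate, that is with Ctrl 3 (919 CPM) alone as the uninjured control, and not called there (adjusted p = 0.200), and it was called in 5 of 12 fits that left out 1 library. It was lost without Ctrl 1, Ctrl 2, Ctrl+IR 1, Ctrl+IR 4, PT-KO 2, PT-KO+IR 3 or PT-KO+IR 4, with values from -0.88 to -0.70. PT-KO+IR against Ctrl+IR gave -0.22 ± 0.13 (adjusted p = 0.189). Without IR, PT-KO against Ctrl gave 0.64 ± 0.21 (adjusted p = 0.228), and 0.23 with sex as a covariate. DESeq2 called the former (adjusted p = 0.0343). The Cre transgene carries the promoter of this gene, and the part of the transgene in these counts was not tested.

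Chac1 (chromosome 2, 119351229 to 119354381) encodes a cytosolic gamma-glutamylcyclotransferase that degrades glutathione and is known as a target of ATF4. Its counts were 14, 6 and 4 in Ctrl and 12, 23 and 10 in PT-KO. They were 59, 43 and 13 in Ctrl+IR and 199, 306 and 153 in PT-KO+IR. The PT-KO+IR libraries were above all others, and Ctrl+IR 4 fell into the range of the groups without IR.

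In CPM Chac1 was at 0.430 ± 0.247 in Ctrl, 0.869 ± 0.327 in PT-KO, 1.90 ± 0.953 in Ctrl+IR and 13.5 ± 3.57 in PT-KO+IR (mean ± SD, n = 3 each). It rose after IR in PT-KO by 3.92 ± 0.30 (adjusted p = 2.4e-06) and in Ctrl by 2.13 ± 0.57 (adjusted p = 0.0410). With sex as a covariate the value was 3.09 (adjusted p = 0.0371), which rests on the 4 counts of Ctrl 3 alone. The rise in Ctrl was called in 1 of 6 fits that left out 1 library, namely without Ctrl+IR 4, and ranged from 1.81 to 2.70. PT-KO+IR was higher than Ctrl+IR by 2.79 ± 0.38 (adjusted p = 0.0011), and this was called in 6 of 6 such fits. The interaction of 1.80 ± 0.69 did not pass (adjusted p = 0.0662) and was 0.84 with sex as a covariate. It was called by DESeq2 (adjusted p = 0.0249) and without the low-count filter (adjusted p = 0.0449).

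Across the wider pathway, 47 of 48 listed genes were tested in each comparison, all but Gpx2. In PT-KO+IR against PT-KO, 12 were higher, 25 were lower and 10 did not pass, with a median log2 fold change of -0.44 against 0.01 over all genes. Those counts are 25.5% and 53.2% of the 47, beside 32.9% and 32.7% of all genes. In PT-KO+IR against Ctrl+IR, 8 were higher and 11 were lower (median -0.21), and their shares of 17.0% and 23.4% lay near the 22.5% and 24.4% of all genes. In Ctrl+IR against Ctrl, 8 were higher and 5 were lower (median -0.14), which is 17.0% and 10.6% beside 11.4% and 7.97% of all genes, and in PT-KO against Ctrl none was called. The interaction was called as more positive in PT-KO for 7 and more negative for 9, at 14.9% and 19.1% near the 14.3% and 16.4% of all genes. With sex as a covariate, the median of the 47 was -0.24 in Ctrl+IR against Ctrl and -0.10 for the interaction. The median of all genes in that fit is not given here. Its calls in these comparisons are not counted, because only the male Ctrl library stands behind the Ctrl level. That fit called 8 higher and 17 lower in PT-KO+IR against Ctrl+IR, where it called 8472 of 16168 genes in all.

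The genes of thiol reduction and NADPH supply were mostly higher in PT-KO+IR: 5 of 7 rose and 1 fell against PT-KO, beside 32.9% higher and 32.7% lower of all genes, and 5 of 7 were higher and none lower against Ctrl+IR, where 22.5% of all genes were higher. Glrx, which encodes the glutathione-dependent glutaredoxin, was higher by 2.85 ± 0.13 against PT-KO and by 3.16 ± 0.15 against Ctrl+IR (adjusted p = 8.4e-08 and 5.0e-05). Txnrd1, the cytosolic thioredoxin reductase that works beside glutathione reductase, was higher by 1.89 and 1.53, and Pgd, an enzyme of the pentose phosphate pathway that yields NADPH, by 2.33 and 1.29. In Ctrl after IR, Txnrd1 rose by 0.63 and Pgd by 1.30, while Glrx was not called. With sex as a covariate these rises were 0.63 (adjusted p = 0.0747) and 1.05 (adjusted p = 0.0400). The interaction was called for Glrx at 2.77 ± 0.28 and for Txnrd1 at 1.28 ± 0.20, and they were 3.21 and 1.27 with sex as a covariate.

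Of the 4 regulators, Atf4 and Nfe2l2 were higher in PT-KO+IR in both comparisons and the others were not called, beside 32.9% of all genes higher against PT-KO and 22.5% against Ctrl+IR. Atf4 rose by 1.92 ± 0.09 in PT-KO+IR against PT-KO, by 0.71 ± 0.14 in Ctrl+IR against Ctrl and was higher by 1.20 ± 0.14 in PT-KO+IR against Ctrl+IR (adjusted p = 1.4e-07, 0.0199 and 6.1e-04). Nfe2l2 was higher by 1.28 ± 0.11 and 0.96 ± 0.18 in the comparisons of PT-KO+IR (adjusted p = 5.2e-06 and 0.0039) and by 0.29 ± 0.18 in Ctrl+IR against Ctrl, which was not called (adjusted p = 0.277). With sex as a covariate the rise of Atf4 in Ctrl was 0.62 and was called (adjusted p = 0.0442), and Nfe2l2 was at 0.50 and not called (adjusted p = 0.161). Keap1 and Bach1, which encode an adaptor that targets NRF2 for degradation and a repressor of the same elements, were not called in any of these comparisons.

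All 6 genes of transsulfuration and cysteine use fell in PT-KO+IR against PT-KO, with a median of -1.21, where 32.7% of all genes were lower. Against Ctrl+IR, 4 of 6 were lower beside 24.4% of all genes, while Ahcy, which hydrolyses S-adenosylhomocysteine, was at -0.21 and Cdo1, which oxidises cysteine, at 0.14, neither called. Cbs, the first enzyme of transsulfuration, had the largest fall of these, -2.46 ± 0.15 (adjusted p = 4.3e-07). Of the 7 genes of cystine and amino acid transport, 5 fell and 1 rose in PT-KO+IR against PT-KO, and 4 were lower and 3 were not called against Ctrl+IR.

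Slc3a1 and Slc7a9 encode the apical cystine transporter of the proximal tubule, and Slc7a13 a further partner of Slc3a1. In PT-KO+IR against PT-KO their log2 fold changes were -1.87 ± 0.10, -1.37 ± 0.11 and -3.79 ± 0.20, all called. Against Ctrl+IR, Slc3a1 was lower (-1.10 ± 0.18) and so was Slc7a9 (-0.77 ± 0.19), whereas Slc7a13 was at -1.42 ± 0.51 and did not pass (adjusted p = 0.0512). In Ctrl after IR Slc3a1 fell by 0.79 and Slc7a9 by 0.98 on the log2 scale, and the values were -0.70 and -0.84 with sex as a covariate. Slc7a13 was at -0.79 ± 1.77 there (adjusted p = 0.774) and at -2.37 with sex as a covariate (adjusted p = 0.0224). In PT-KO+IR against PT-KO the genes of the brush border cystine transporter and Slc7a11 therefore moved in opposite directions. Slc7a5, a further partner of Slc3a2, rose by 2.08 in PT-KO+IR against PT-KO and by 1.34 in Ctrl+IR against Ctrl. The latter was 2.02 with sex as a covariate. Slc1a4, a neutral amino acid exchanger gene, rose by 1.70 in Ctrl+IR against Ctrl (1.41 with sex as a covariate, not called, adjusted p = 0.0525) and was lower in PT-KO+IR than in Ctrl+IR (-1.67 ± 0.26).

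In the gamma-glutamyl cycle, 6 of 9 genes fell and 2 rose in PT-KO+IR against PT-KO, beside 32.7% lower and 32.9% higher of all genes. Against Ctrl+IR, 3 were lower and the other 6 did not pass, a share lower of 33.3% beside 24.4% of all genes. Anpep, a brush border aminopeptidase, fell against PT-KO (-2.66 ± 0.10) and was lower than in Ctrl+IR (-1.98 ± 0.26). Chac2, the constitutive relative of Chac1, fell by 2.36 (SE 0.15) and was lower than in Ctrl+IR (-1.49 ± 0.20), opposite to Chac1. Ggct, which degrades gamma-glutamyl amino acids, fell by 2.35 against PT-KO and by 1.33 in Ctrl after IR. Dpep1, the brush border dipeptidase that takes over after Ggt1, fell by 1.53 in Ctrl after IR. Against Ctrl 3 alone, in the fit with sex, the values were -1.50 for Ggct and -1.68 for Dpep1.

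Among the peroxidases outside the 10, Gpx1, the main cytosolic enzyme, was called in PT-KO+IR against PT-KO (-0.97 ± 0.10, adjusted p = 1.6e-05). It was at -0.39 ± 0.17 against Ctrl+IR and at -0.44 ± 0.20 in Ctrl after IR, neither called. In the fit to 12 libraries with sex as a covariate, Gpx1 was called against Ctrl+IR (-0.38, adjusted p = 0.0436) and not in Ctrl after IR (-0.56, adjusted p = 0.0826). That fit also called Gpx8 in Ctrl after IR (0.85, adjusted p = 0.0443) and in PT-KO+IR against Ctrl+IR (-0.46, adjusted p = 0.0360), and Gpx7 in PT-KO+IR against PT-KO (0.76, adjusted p = 0.0401). Lrp8, which encodes a selenoprotein P receptor, rose by 3.76 ± 0.21 in PT-KO and by 1.86 ± 0.49 in Ctrl, which was 2.70 with sex as a covariate.

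**Figure D3:**
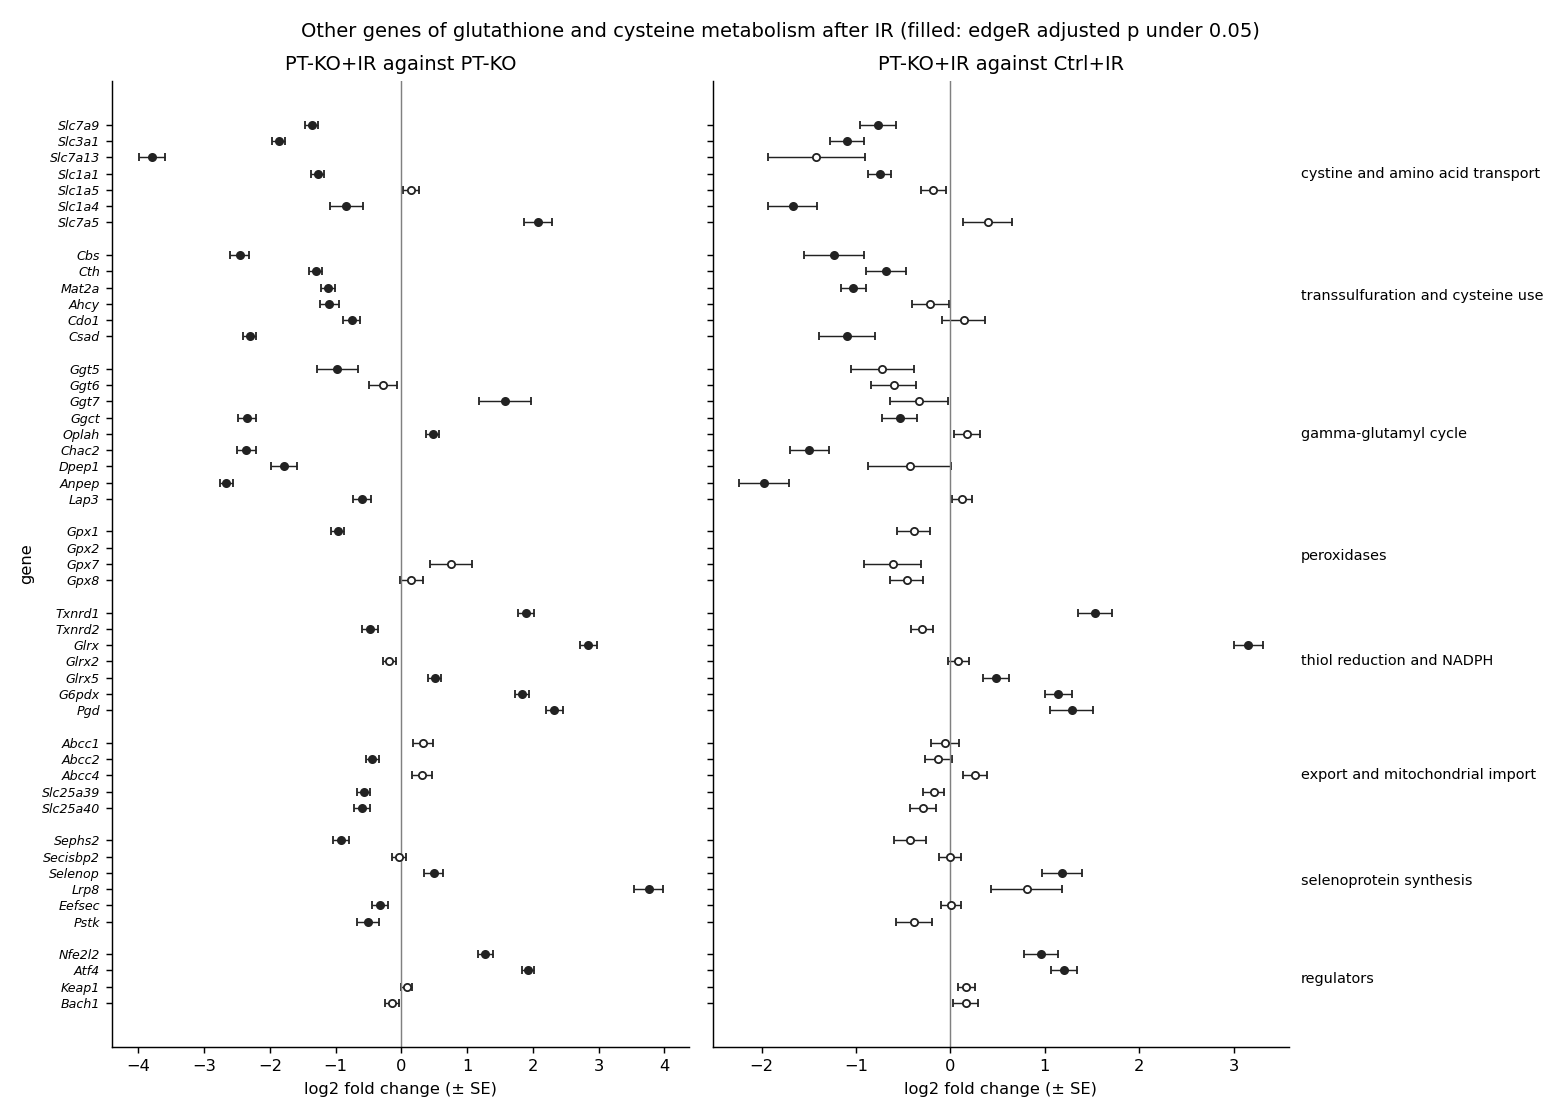
Log2 fold changes (x axis, ± SE) of the 48 listed genes of the wider pathway (y axis, grouped by role) in PT-KO+IR against PT-KO (left) and against Ctrl+IR (right). Filled points passed an edgeR adjusted p of 0.05, and Gpx2 was not tested. The transsulfuration genes lie left of 0 in the left panel, and Glrx lies at 2.85 and 3.16.

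Markers of several tubule segments were lower in PT-KO+IR than in PT-KO. The summed level of 14 proximal tubule markers was 22000 to 23813 CPM in Ctrl, 22580 to 25362 CPM in PT-KO, 7783 to 15090 CPM in Ctrl+IR and 6933 to 7953 CPM in PT-KO+IR. All 14 fell in PT-KO+IR against PT-KO, with a median log2 fold change of -2.08, 7 of 14 were lower against Ctrl+IR (median -0.72) and 6 of 14 fell in Ctrl+IR against Ctrl. The shares of all genes lower in these comparisons were 32.7%, 24.4% and 7.97%. All 5 markers of the thick limb and distal tubule fell in PT-KO+IR against PT-KO (median -1.79), and so did 4 of 5 of the collecting duct (median -1.53). Against Ctrl+IR, 2 of 5 and 1 of 5 of these were lower (medians -0.10 and -0.63), which for so few genes is near the 24.4% of all genes. The thick limb and distal markers summed to 5600 to 7608 CPM without IR, 1658 to 4128 CPM in Ctrl+IR and 2217 to 2675 CPM in PT-KO+IR, and those of the collecting duct to 285 to 395, 94.2 to 305 and 106 to 157 CPM. In cortex, fewer proximal tubule cells and less mRNA per cell cannot be told apart. The falls of Ggt1 (-1.05) and Gss (-0.85) and the values of Gpx4 (-0.14) and Gpx3 (-0.08) in PT-KO+IR against PT-KO were smaller than that median, and the part of tubule mRNA loss in them was not tested.

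**Figure D4:**
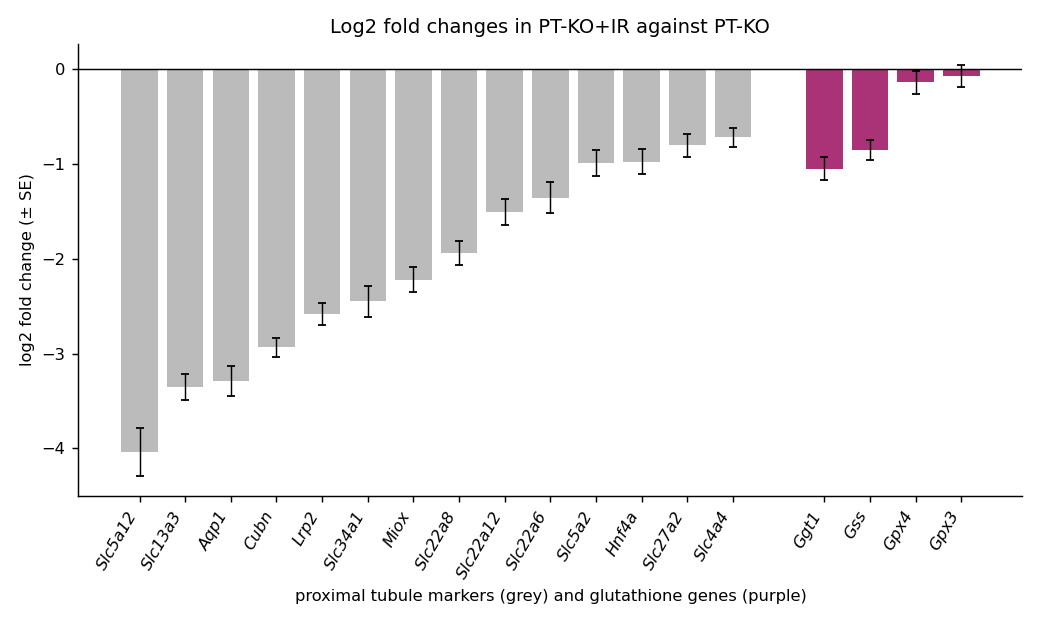
Log2 fold changes in PT-KO+IR against PT-KO (y axis, bars from 0, ± SE, 3 libraries a group) of 14 proximal tubule markers (grey) and of Ggt1, Gss, Gpx4 and Gpx3 (purple). The marker median is -2.08, and Ggt1 is at -1.05.

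The summed level of 5 tubule injury genes, among them Havcr1 and Lcn2, was 8.88 to 23.5 CPM without IR, 571 to 2667 CPM in Ctrl+IR and 4839 to 6359 CPM in PT-KO+IR. PT-KO+IR, the group in which Slc7a11, Chac1 and Gsr were highest, thus also had the highest sum of injury genes. All but Vcam1 were higher in PT-KO+IR than in Ctrl+IR, and Vcam1 was lower (-1.35). The 9 leukocyte markers summed to 66.8 to 85.8 CPM in Ctrl, 71.2 to 75.0 CPM in PT-KO, 89.8 to 131 CPM in Ctrl+IR and 77.9 to 107 CPM in PT-KO+IR. That sum covers changes of opposite sign. In PT-KO+IR against Ctrl+IR, 7 of the 9 were tested. Cd68 (0.76), S100a9 (1.67) and S100a8 were higher, Ptprc, Adgre1 and Csf1r were lower (-2.32, -4.37 and -1.42) and Itgam was at -0.20 and not called. The sum of 4 fibroblast markers was highest in Ctrl+IR, at 399 to 543 CPM against 108 to 176 CPM in PT-KO+IR. Of the 4, 2 were called lower in PT-KO+IR against Ctrl+IR, beside 24.4% of all genes. In the fit with sex as a covariate, Col1a1 and Col3a1 were at -3.47 and -2.13 in that comparison, and Pdgfrb and Dcn at -0.42 and 0.03. Endothelial markers summed to 376 to 416 CPM in PT-KO+IR and 276 to 321 CPM in Ctrl+IR, which did not overlap, and to 316 to 346 CPM without IR. Of these 5 markers, 3 were higher in PT-KO+IR against Ctrl+IR and 3 against PT-KO, where 1 was also lower. Beside them stand 22.5% of all genes higher against Ctrl+IR, and 32.9% higher and 32.7% lower against PT-KO. The part of cell makeup and of injury depth in the levels of the 10 genes was not tested.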

How the data were processed

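Kidney cortex RNA of 12 libraries was sequenced on an Illumina platform. The labels name HISAT2 2.0.4 and the build mm10 in the submitters' processing notes, and the counting program, annotation and strand setting are not given in the sources used here. The authors deposited raw gene counts, neither normalized nor filtered, for 55487 Ensembl identifiers. GENCODE M21 (GRCm38) gave a symbol for 55141 of them, and 29160 were detected in a library. All 12 columns were used. Ctrl 3 belongs to Ctrl by column name only, since the control titles are numbered 1, 2 and 4.

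The 10 genes, the wider list of 48 pathway genes and the list of 51 marker genes were chosen with earlier results of these data known. All 10 genes are named, with the pathway genes of the largest called changes (up to 3 in each direction, mean count at least 100) and the listed partners of the 10. Lrp8 is named by that rule. Glrx, Txnrd1 and Pgd are also given in comparisons where the rule did not name them, as are Slc7a5, Slc1a4, Keap1, Bach1, Gpx7, Gpx8, Ahcy, Cdo1, Acss2, Gm6061 and Gpx4-ps2, chosen after their values were seen.

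Counts were filtered with filterByExpr, normalized by TMM and compared by quasi-likelihood F tests (edgeR 4.0.16, R 4.3.3) across all genes, on the 6 libraries of each comparison and on 12 for the interaction. Calls were made under 0.05 after Benjamini-Hochberg adjustment, and the SE is the log2 fold change over the root of F. The test was checked on simulated counts: directions were right for the changed genes it found, but it found a smaller share of them for the interaction than for a comparison of 2 groups, below the share first required, and that requirement was then lowered, so that an uncalled interaction carries little weight. CPM were scaled by TMM over the 12 libraries, and TPM used GENCODE exon lengths. Gene positions are from GENCODE M21 and promoter windows from RefSeq GRCm38.p6. The labels do not state whether replicates are separate mice, and p-values measure only the spread between these samples. Alternatives were a joint fit to 12 libraries, sex as a covariate (which leaves Ctrl 3 as the only library behind the Ctrl level), a block for the replicate number, total counts in place of TMM, filters of none or of 10 counts per library, DESeq2 1.42.0 and leaving out each library. The covariate was extended to the pathway and marker lists after the data had been seen. Same-numbered libraries did not deviate together (12 pairs, correlations of -0.188 to 0.184, median -0.022).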

Additional observations from a re-analysis of the deposited data

Results flagged for a closer look

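The IR change differed between the genotypes for 4 of the 10 genes by the edgeR interaction test on all 12 libraries. Of all 16168 genes tested, 14.3% had a more positive and 16.4% a more negative response in PT-KO, so that a called interaction was common. The log2 change in PT-KO minus that in Ctrl was 3.41 for Slc7a11, 1.39 for Slc3a2, 1.15 for Gsr and -0.86 for Ggt1. With sex as a covariate, Slc3a2 (1.19) and Gsr (1.30) passed the test and Slc7a11 (3.86) and Ggt1 (-0.45) did not, but both female libraries are in Ctrl, so that this fit has Ctrl 3 alone as the uninjured control and does not sort the 4 genes. Of the 10 genes, Slc3a2 had called changes of opposite sign in the genotypes, -0.57 in Ctrl and 0.81 in PT-KO, but the fall in Ctrl was -0.38 and not called with sex as a covariate (adjusted p = 0.137). Groups of 3 libraries were too small for a search for single outlying libraries.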

How the results depend on the processing

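Over 680 values of the 10 genes under the alternatives, 592 kept their direction and side of the threshold, 38 lost and 37 gained a call, and 13 changed sign. For Ctrl+IR against Ctrl, where 3 genes were called, DESeq2 called 5, the replicate block 5, sex as a covariate 1, and leaving out 1 library 0 to 4 (0 without Ctrl 1, Ctrl 2, Ctrl+IR 1 or Ctrl+IR 2). For PT-KO+IR against Ctrl+IR (4 called), total counts gave 7, the block 2, and leaving out 1 library 4 to 7 (7 without Ctrl+IR 2). For PT-KO against Ctrl (0 called), DESeq2 gave 3, no filter 1, the block 4, and leaving out 1 library 0 to 4 (4 without Ctrl 3). For the interaction (4 called), sex as a covariate gave 2 and leaving out 1 library 2 to 5 (2 without Ctrl 2 or PT-KO 2). PT-KO+IR against PT-KO stayed at 7 or 8 of 8. Values with sex as a covariate rest on Ctrl 3 alone for Ctrl. In the block fits Ctrl 3 has a block of its own, so that block values that rest on Ctrl set only the female libraries Ctrl 1 and Ctrl 2 against male libraries. Replicate numbers did not pair the libraries. The cause of these changes was not tested.

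Signs changed for Ggt1 in Ctrl+IR against Ctrl under the block (0.0022) and when leaving out 1 library (-0.32 to 0.086). In PT-KO against Ctrl they changed for Gclc (-0.22 with sex, -0.0031 to 0.36 leaving out 1 library), Gpx4 (-0.097 with total counts, -0.14 with sex, -0.11 to 0.12) and Gpx3 (0.0010 with the block, -0.087 to 0.0009). In the interaction under the block they changed for Gclc (-0.10) and Gclm (-0.029). Over all genes, calls were 7169 (1683 with the block) for PT-KO+IR against Ctrl+IR, 3019 (4938 with 1 fit to 12 libraries, 2029 with sex) for Ctrl+IR against Ctrl, 4953 (3215 with the block, 3233 with sex) for the interaction and 0 (458 with DESeq2, 388 with no filter, 1378 with the block) for PT-KO against Ctrl. Total counts shifted the median of all genes by 0.12, -0.12, -0.21 and 0.04 in Ctrl+IR against Ctrl, PT-KO against Ctrl, PT-KO+IR against Ctrl+IR and PT-KO+IR against PT-KO. Depth limited Slc7a11 and Chac1 without IR, at 4 to 23 counts a library.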

Other observations

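Over the 12 libraries, the genes whose log2 CPM most resembled each of the 10 were sought among 10987 genes with a mean count of at least 100. The correlations are descriptions, since the libraries fall into groups that differ in many genes at once. Chac1 was most like Cebpb, which encodes a C/EBP factor (Pearson r = 0.98), and Gsr most like Reps1 (r = 0.99). Gss was most like Glb1 (r = 0.99), the gene of lysosomal beta-galactosidase, and Ggt1 most like Mtrex (r = 0.99). Slc7a11 was most like Nedd1 (r = 0.98), Slc3a2 most like Ip6k1 (r = 0.93), Gclc most like Tmem214 (r = 0.95) and Gclm most like Bbx (r = 0.95). For Gpx4 the nearest were Ciao2b (r = 0.89) and its own processed copy Gpx4-ps2 (r = 0.86), and for Gpx3 the nearest was Atp6ap2 (r = 0.93).

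Relative to its mean, Slc7a13 varied within Ctrl more than any of the 10 genes, at 311 ± 533 CPM (mean ± SD, n = 3), while PT-KO was at 935 ± 168 CPM. The Ctrl libraries ran from 2.56 to 927 CPM, so that their mean stands for no library. The highest was the male library Ctrl 3, which lay within the range of PT-KO (766 to 1101 CPM), a group of male mice only. Ctrl holds 2 female libraries and 1 male library.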
